A study of Mus musculus with 10 samples.

Results

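The comparison of wild-type Pax5 with empty vector comprises 6 of the 10 arrays of the series, 3 from J558 cells carrying wild-type Pax5 and 3 from J558 cells carrying the vector alone. All 19937 mouse genes that had a probe set with a single gene symbol entered it, each through its probe set with the highest mean. J558 is an established mouse myeloma line of plasma-cell type, so every culture derives from 1 line. Each group was infected with the retroviral vector MSCV-Puro-IRES-GFP (PIG), which carries puromycin resistance and green fluorescent protein. It held no insert in the empty-vector group and Pax5 WT in the wild-type group. Common to both groups, and to 4 further cultures given Pax5 G183S, were puromycin selection for 5 to 7 days and a sort on GFP and IgM. The G183S arrays entered only the estimate of spread, except where their values are given. Replicates are called independent and biological in the labels, which do not say whether they were separate infections, so the p-values measure the spread between these cultures. In a bulk culture, a change in all cells and a change in a fraction of them cannot be told apart.

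Pax5 is the paired-domain transcription factor that commits lymphoid progenitors to the B lineage. It activates genes of B-cell receptor signalling, adhesion and antigen presentation and represses genes of other lineages. Plasma cells shut it off as the secretory programme controlled by Blimp-1 and Xbp1 takes over, so a myeloma line that receives Pax5 is a plasma-cell-type host given back an earlier regulator. The comparison asks which genes such a host gains and loses.

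The labelled plasma-cell type was borne out by the defining markers, with exceptions among the immunoglobulin genes. Xbp1, the secretory-programme factor, read 12.94, 13.04 and 13.06 log2 units in empty-vector replicates 1, 2 and 3 and 12.93, 12.88 and 12.53 in wild-type replicates 1, 2 and 3. Sdc1, the plasma-cell surface proteoglycan, lay between 11.22 and 11.51 with empty vector and between 10.45 and 10.97 with wild type. Irf4, Prdm1, Jchain, Tnfrsf17 and Mzb1 also lay well above 7.23 log2 units in every array. That value, the median over all genes and arrays, is called the dim level below. The probe sets of Igha, the heavy chain of IgA, averaged 7.22 with empty vector and 6.90 with wild type, and those of Ighm, the heavy chain of IgM, 6.24 and 6.28, so neither immunoglobulin chain was bright in either group.

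Array medians lay between 6.81 and 6.94 log2 units. Across genes, arrays of 1 group correlated at 0.987 to 0.998 and arrays of different groups at 0.981 to 0.992. On the first principal component of the 10 arrays, which held 42.2% of the variance, the empty-vector arrays scored -17.1, -14.1 and -9.89 and the wild-type arrays 39.6, 17.5 and 2.12. On this component wild-type replicate 1 lay farthest from the empty-vector arrays and replicate 3 nearest, but the second component (22.5%) placed replicate 3 farthest, at -13.5 against 14.03 to 20.9 with empty vector and 0.37 and 2.09 in the other 2 wild-type arrays. The median difference from the empty-vector mean over the genes that rose was 0.97, 0.78 and 0.79 log2 units in wild-type replicates 1, 2 and 3, and over the genes that fell -0.70, -0.59 and -0.62. These medians are a description, since the same arrays chose the genes.

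Gains and losses were about equal in number but not in size. Of the 19937 genes, 374 (1.88%) passed limma's adjusted p of 0.05, and these are the genes said below to have risen or fallen. Of them 176 (0.883%) were higher with wild-type Pax5 and 198 (0.993%) lower. Changes of at least 1 log2 unit were found in 71 of the higher and 36 of the lower genes, and changes of at least 2 log2 units in 20 higher genes and 1 lower gene. That gene is Trav14-1, a T-cell receptor variable segment outside the naming rule and chosen here after its value was seen. It read 7.50, 6.51 and 7.34 with empty vector and 3.92, 4.95 and 4.59 with wild type (log2 difference -2.63 ± 0.30 SE, limma adjusted p = 0.00743). In all 374 genes the 3 arrays of either group lay beyond the 3 of the other, as they did in 4791 (24%) of all genes, with wild type above in 2301 (11.5%) and below in 2490 (12.5%).

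The genes that rose started lower on the array scale than those that fell. Their median level with empty vector was 8.10 log2 units, against 9.53 for the falling genes and 7.22 for all genes. These levels are a description, because the empty-vector mean also enters the difference that chose the genes. A dim probe set also has little room to fall. Of the 176 higher genes, 26 went from below the dim level in every empty-vector array to above it in every wild-type array, 112 lay above it throughout and 17 below it throughout. Of the 198 lower genes, 175 stayed above the dim level in all 6 arrays and only 8 went from above it in every empty-vector array to below it in every wild-type array. Most of the losses were thus reductions in bright probe sets, by a median of -0.65 log2 units, while the median gain was 0.86. Levels of different probe sets are not amounts of RNA, and without background readings a gain from a dim start has no known upper size.

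**Figure D1:**
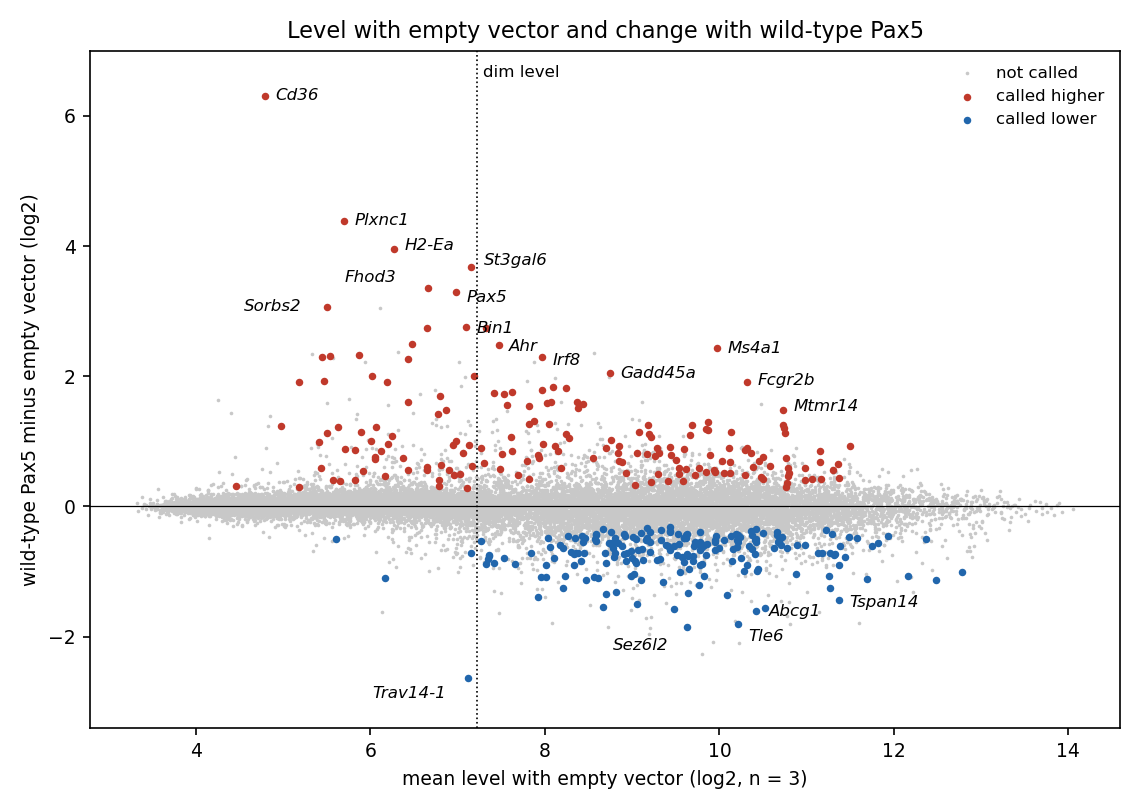
Each point is 1 of 19937 genes, with its mean level in the 3 empty-vector arrays (log2 units) on the x axis and the wild-type minus empty-vector difference (log2 units) on the y axis; called genes are red (176 higher) or blue (198 lower), and the dotted line is the dim level of 7.23. The 7 increases of at least 3 log2 units all start left of that line, and the blue points lie mostly to its right.

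The number of calls depended on single arrays. Every one of the 374 genes kept its direction in each of the 10 fits that left out 1 array. That outcome was fixed in advance, because the groups of every called gene lay apart, and it is no measure of stability. Without empty-vector replicate 1, 2 or 3 the higher and lower genes numbered 67 and 55, 13 and 8, and 6 and 0. Without wild-type replicate 1, 2 or 3 they numbered 50 and 40, 83 and 103, and 129 and 140, and without G183S replicates 1, 2 and 4 they numbered 369 and 664, 88 and 124, and 85 and 129. Cd36, St3gal6, Pax5, H2-Ob, Fcgr2b and Siglecg passed in all 10 of these fits, and every other gene below lost its call when empty-vector replicate 3 was left out. With arrays centred on their medians the split was 102 higher and 246 lower.

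Pax5 was also read at the gene itself, as a check of the labels. Its probe set read 7.10, 6.84 and 7.01 with empty vector and 10.67, 10.09 and 10.05 with wild type, and the groups were far apart. Whether the signal came from the vector or from the cells' own gene was not tested.

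The largest gain was that of Cd36. Cd36, a scavenger receptor that takes up long-chain fatty acids and oxidised lipoproteins, read 4.73, 4.82 and 4.82 with empty vector and 11.14, 11.52 and 10.65 with wild type. All 3 empty-vector arrays lay far below the dim level and all 3 wild-type arrays far above it (log2 difference 6.31 ± 0.58 SE, limma adjusted p = 0.00324). It was the only gene of 19 lipid-uptake and scavenger-receptor genes to change, and the list's median difference was 0.05 log2 units, against 0.01 for all genes. The fatty-acid-binding protein gene Fabp5 (log2 difference 0.83, limma adjusted p = 0.280) and the transporter gene Slc27a4 (-0.34, adjusted p = 0.0754) did not pass.

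Plxnc1, a plexin that binds semaphorin 7A, read 5.79, 5.41 and 5.88 with empty vector and 9.97, 9.67 and 10.61 with wild type. No array of either group came near the other group (log2 difference 4.39 ± 0.51 SE, limma adjusted p = 0.00767). Among 29 semaphorins, plexins and neuropilins Plxnc1 rose, the class 4 semaphorin gene Sema4c fell (-0.80 ± 0.14, adjusted p = 0.0260) and 27 did not pass. Sema4c read 7.23, 7.74 and 7.63 with empty vector and 6.52, 6.76 and 6.93 with wild type, a move from the dim level to below it. Of the ephrins and their receptors, which also guide cell contact, 1 of 18 changed, the ligand gene Efna2. It fell from 8.53, 8.93 and 8.62 to 7.19, 7.31 and 7.54 (log2 difference -1.35 ± 0.27 SE, limma adjusted p = 0.0403).

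Enzymes that finish glycans moved one by one and in both directions. St3gal6, a sialyltransferase that caps galactose in an alpha-2,3 linkage, read 7.43, 7.20 and 6.83 with empty vector and 11.07, 10.82 and 10.60 with wild type. This was the smallest adjusted p of the comparison among all genes (difference 3.68 ± 0.21 SE, limma adjusted p = 1.85e-04). Of the other sialic acid genes, St3gal2, which makes the same linkage, fell by 0.55 log2 units (adjusted p = 0.0373) and St6galnac6, which works on glycolipids, by 0.48 (adjusted p = 0.0248), and 20 of the 23 on the list did not pass. Man2a1, the Golgi mannosidase that opens the way to complex N-glycans, read 10.82, 10.72 and 10.71 and then 12.15, 11.83 and 11.66 (1.13 ± 0.20 SE, adjusted p = 0.0290). Fut8, which adds the core fucose to those glycans, fell from 10.28, 10.27 and 10.41 to 9.20, 9.92 and 9.15 (-0.90 ± 0.18 SE, adjusted p = 0.0430). These were the only 2 calls among 29 N-glycan, fucose and O-glycan enzymes, whose median difference was 0.03.

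Several other receptor, adhesion and surface enzyme genes rose, Slamf6, Cpm and Itgb3 from below the dim level. Slamf6, a homotypic SLAM receptor of lymphocytes, read 5.50, 5.27 and 5.62 with empty vector and 7.77, 6.89 and 7.51 with wild type (1.92 ± 0.26 SE, limma adjusted p = 0.0131). It was the only member of 21 SLAM and leukocyte adhesion genes called. Cpm, a membrane-bound carboxypeptidase, rose from between 5.41 and 5.53 to 8.60, 6.80 and 7.81 (2.29 ± 0.38 SE, adjusted p = 0.0230), with wild-type replicate 2 below the dim level. Itgb3, the beta-3 integrin chain, went from 6.82, 7.00 and 7.04 to 8.26, 7.68 and 7.75 (0.95 ± 0.16 SE, adjusted p = 0.0248) and was the only call among 25 integrins. Il4ra and Il17ra, receptor chains for interleukins, rose from above it, by 0.85 (adjusted p = 0.0254) and 0.46 (adjusted p = 0.0467), the only calls among 47 cytokine receptor, JAK, STAT and SOCS genes.

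**Figure D2:**
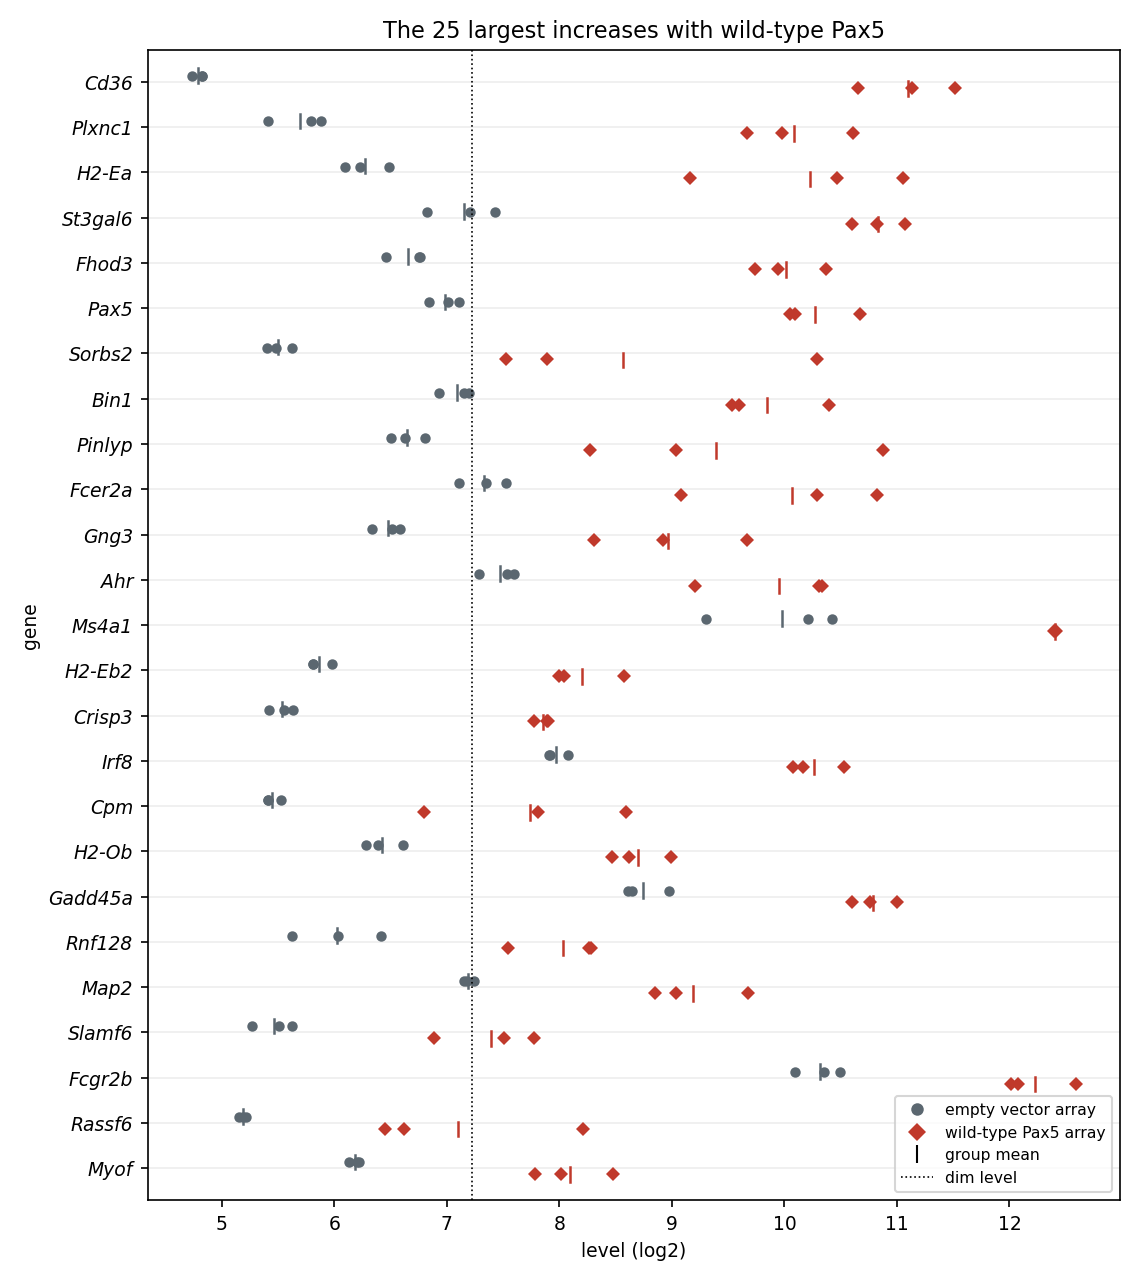
The 25 called genes with the largest increases, 1 per line, with the level in each empty-vector array (grey circles) and wild-type array (red diamonds) in log2 units; short bars are group means and the dotted line is the dim level. No gene's groups overlap; the wild-type arrays lie far apart for Sorbs2 and Pinlyp and close together for Ms4a1 and Crisp3.

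Single genes of the actin cytoskeleton moved in both directions. Fhod3, a formin known from the actin filaments of heart muscle, read 6.46, 6.76 and 6.75 with empty vector and 10.37, 9.74 and 9.94 with wild type (3.36 ± 0.36 SE, limma adjusted p = 0.00613). Among 28 formin and actin nucleation genes it alone rose and Was, the Wiskott-Aldrich syndrome protein gene of blood cells, alone fell (-0.49 ± 0.11 SE, adjusted p = 0.0495). Sorbs2, an adaptor between the cytoskeleton and adhesion sites, rose by 3.07 ± 0.63 log2 units (adjusted p = 0.0439), but unevenly, to 10.29, 7.89 and 7.53 from 5.62, 5.48 and 5.40.

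BAR-domain proteins, which sense or impose membrane curvature, had 5 of 30 members higher and 0 lower by limma, with a list median of 0.03. Over all genes 0.883% were called higher and 0.993% lower. All wild-type arrays lay above all empty-vector arrays for 6 members and below them for 8, against 11.5% and 12.5% of all genes. Bin1, or amphiphysin 2, read 6.93, 7.15 and 7.20 with empty vector and 9.60, 9.53 and 10.40 with wild type (2.75 ± 0.29 SE, limma adjusted p = 0.00613). The sorting nexin gene Snx2, a retromer partner, was bright in both groups and rose from 10.69, 10.83 and 10.72 to 12.13, 11.92 and 11.81 (1.21 ± 0.17 SE, adjusted p = 0.0159). Mtss1 (0.91), Srgap2 (0.38) and the endophilin gene Sh3gl3 (0.31, all log2 differences) were the smaller calls. Retromer's cargo subunit gene Vps26b, chosen after its value was seen, went the other way, from 10.73, 10.96 and 10.95 to 9.68, 10.04 and 9.80 (-1.04 ± 0.13 SE, adjusted p = 0.0106).

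Map2, a microtubule-associated protein of neuronal dendrites, rose by 2.0 ± 0.30 log2 units (limma adjusted p = 0.0170), from 7.18, 7.15 and 7.24 to 9.68, 9.04 and 8.85. The ferlin gene Myof, of membrane repair, rose by 1.91 (adjusted p = 0.0407) and the Ras-association gene Rassf6 by 1.91 (adjusted p = 0.0356), the latter with 8.21 in wild-type replicate 1 and 6.45 and 6.62 in the others.

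Of the transcription factor genes on the lists, Irf8, Ahr, Egr1 and Rel rose. Irf8, which works with Pax5 and PU.1 in B cells, was the only 1 of 18 B-lineage factors to pass, with 7.92, 8.07 and 7.91 against 10.53, 10.08 and 10.17 (2.29 ± 0.27 SE, limma adjusted p = 0.00767). Ikzf3, which encodes Aiolos, read 8.94, 8.41 and 8.48 and then 10.21, 10.40 and 9.09, and did not pass (1.29 ± 0.44 SE, adjusted p = 0.177). Ebf1 stayed below the dim level in every array, between 4.95 and 5.16. Bach2 (0.34 ± 0.14 SE, adjusted p = 0.250) did not pass either.

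Ahr, the ligand-activated aryl hydrocarbon receptor, read 7.28, 7.59 and 7.53 with empty vector and 10.31, 10.33 and 9.21 with wild type (2.48 ± 0.44 SE, limma adjusted p = 0.0290). Nqo1, a quinone reductase and a textbook target of the receptor, rose from 5.07, 4.92 and 4.94 to 6.53, 5.46 and 6.64 (1.23 ± 0.26 SE, adjusted p = 0.0453), staying below the dim level. They were the 2 calls among 11 pathway genes, whose median difference was 0.16. Among all genes limma called 0.883% higher and 0.993% lower, and the median was 0.01. Tiparp, another target, read 11.13, 11.16 and 11.30 and then 11.65, 11.93 and 11.61 without passing (0.53 ± 0.14 SE, adjusted p = 0.0931). The classical target Cyp1a1 (0.11, adjusted p = 0.561) and the repressor gene Ahrr (-0.02, adjusted p = 0.942) lay below the dim level in all 6 arrays.

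Egr1, the zinc-finger factor induced within minutes of receptor stimulation, rose from 7.87, 7.92 and 7.67 to 9.13, 9.44 and 8.71 (1.27 ± 0.17 SE, limma adjusted p = 0.0131). It was the only 1 of 25 immediate early factors to rise. Jund fell by 0.37 log2 units (adjusted p = 0.0478), Ier2 was lower without passing (-1.05 ± 0.24 SE, adjusted p = 0.0592), and the list's median was -0.37. Rel, the NF-kB subunit important in B-cell activation, rose by 0.56 ± 0.12 (adjusted p = 0.0484) as the only call among 20 NF-kB genes. The last 4 factor genes were picked after their values were seen and stand as examples of the 296 called genes that belong to no list. Foxq1 rose by 1.75 (adjusted p = 0.0499), the nuclear receptor corepressor gene Nrip1 by 1.60 (adjusted p = 0.0168), Mybl1, a Myb-family gene of germinal centre B cells, by 1.29 (adjusted p = 0.0378), and Ebf3 fell by 0.79 (adjusted p = 0.0225).

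Gadd45a and Rrm2b, genes of the stress response, rose. Gadd45a, induced by DNA damage and stress, read 8.97, 8.65 and 8.61 with empty vector and 10.76, 10.60 and 11.00 with wild type (2.04 ± 0.24 SE, limma adjusted p = 0.00841). Rrm2b, the p53-inducible ribonucleotide reductase subunit, rose from 8.15, 8.38 and 8.21 to 9.60, 9.51 and 9.0 (1.12 ± 0.20 SE, adjusted p = 0.0311). Rrm2b was the only call on the list of 21 p53 targets, which does not include Gadd45a and had a median of -0.18. Bbc3 (-1.01, limma adjusted p = 0.149) and Pmaip1 (-1.26, adjusted p = 0.287) were lower without passing. Chosen after their values were seen, the sestrin gene Sesn3 (1.76, adjusted p = 0.0216), the glycosylase gene Mbd4 (1.02, adjusted p = 0.0454) and the repair scaffold gene Xrcc1 (0.90, adjusted p = 0.0276) rose too. Gadd45a and Sesn3 were the only 2 of the 6 Gadd45 and sestrin genes called, and that family, also put together afterwards, had a median of -0.0020. Among all genes limma called 0.883% higher and 0.993% lower.

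Of the B-cell genes Pax5 is best known for, antigen presentation was represented most fully. MHC class II genes had 6 of 12 measured members higher and 0 lower by limma, against 0.883% and 0.993% of all genes. The list median was 1.24 log2 units, against 0.01 for all genes. H2-Ea, an alpha chain, read 6.23, 6.49 and 6.10 with empty vector and 11.06, 10.47 and 9.16 with wild type (3.96 ± 0.68 SE, limma adjusted p = 0.0248). H2-Ob, a chain of the peptide-loading modulator H2-O, read 6.61, 6.39 and 6.28 and then 8.99, 8.47 and 8.62 (2.27 ± 0.20 SE, adjusted p = 0.00298). H2-Eb2, H2-Eb1, H2-Ab1 and the invariant chain gene Cd74 made up the rest. Ciita, the master coactivator of this set, read 7.32, 6.95 and 6.76 and then 7.77, 7.32 and 7.23, and its groups overlapped (0.43 ± 0.17 SE, adjusted p = 0.260). Of the 6 genes, H2-Ob passed in all 10 left-out fits, and H2-Ea, H2-Eb1, H2-Eb2, H2-Ab1 and Cd74 passed in 5, 5, 4, 3 and 6 of them.

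Among 18 B-cell surface genes 5 rose and 0 fell by limma, against 0.883% and 0.993% of all genes, with a median of 0.78. Fcgr2b, the inhibitory IgG receptor, read 10.50, 10.35 and 10.10 with empty vector and 12.02, 12.07 and 12.59 with wild type (1.91 ± 0.15 SE, limma adjusted p = 0.00142). Siglecg, an inhibitory sialic-acid-binding lectin, rose from 6.81, 6.85 and 6.74 to 8.88, 8.29 and 8.30 (1.69 ± 0.16 SE, adjusted p = 0.00324). Ms4a1, which encodes CD20, stood at 9.30, 10.42 and 10.21 and then at 12.41, 12.40 and 12.41, and Fcer2a, the low-affinity IgE receptor, at 7.53, 7.35 and 7.11 and then at 9.08, 10.83 and 10.29. Of 20 B-cell receptor signalling genes only the adaptor gene Blnk (1.25) and the kinase gene Tec (0.60) passed. Cd79a, a receptor chain gene that Pax5 activates in B cells, stayed below the dim level (4.92, 4.60 and 4.75, then 4.93, 4.70 and 5.53).

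Genes of mitosis and the kinetochore were shifted upward at nearly every member of the list. Of 44 mitosis and kinetochore genes 6 rose and 0 fell by limma, against 0.883% of all genes called higher, 36 had all 3 wild-type arrays above all 3 empty-vector arrays, against 11.5% of all genes, and the list's median difference was 0.67 log2 units, against 0.01 for all genes. Cenpe, the kinesin that carries chromosomes to the spindle equator, read 8.33, 8.40 and 8.59 with empty vector and 10.22, 10.15 and 9.68 with wild type (1.58 ± 0.29 SE, limma adjusted p = 0.0311). Cenpf, a kinetochore protein of late G2 and mitosis, read 8.23, 8.31 and 8.60 and then 10.11, 9.91 and 9.68 (1.52 ± 0.30 SE, adjusted p = 0.0404). The other calls were the kinesin gene Kif18a (1.27), the outer kinetochore genes Ndc80 (1.15) and Knl1 (1.09) and the inner kinetochore gene Cenpq (0.83, all log2 differences).

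The size of this shift varied with the array. Relative to the empty-vector mean, the mean of the 44 genes was -0.354, 0.164 and 0.191 log2 units in empty-vector replicates 1, 2 and 3 and 0.818, 0.770 and 0.502 in the wild-type arrays. Empty-vector replicate 1 thus stood below the other 2, and without it the mean difference was 0.520 log2 units in place of 0.697. The same array was low for 37 DNA replication genes, at -0.282 against 0.181 and 0.102, where the wild-type arrays stood at 0.252, 0.089 and 0.119 and 0 genes passed limma in either direction. The smallest unadjusted p on that list was that of Rfc1, a clamp loader subunit, with a log2 difference of 0.21 (adjusted p = 0.214). The proliferation marker gene Mki67, outside the lists and chosen after its value was seen, read 11.83, 11.86 and 12.11 and then 12.58, 12.57 and 12.24 (0.53 ± 0.19 SE, adjusted p = 0.213). Whether the cultures differed in growth or density when they were harvested was not tested.

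**Figure D3:**
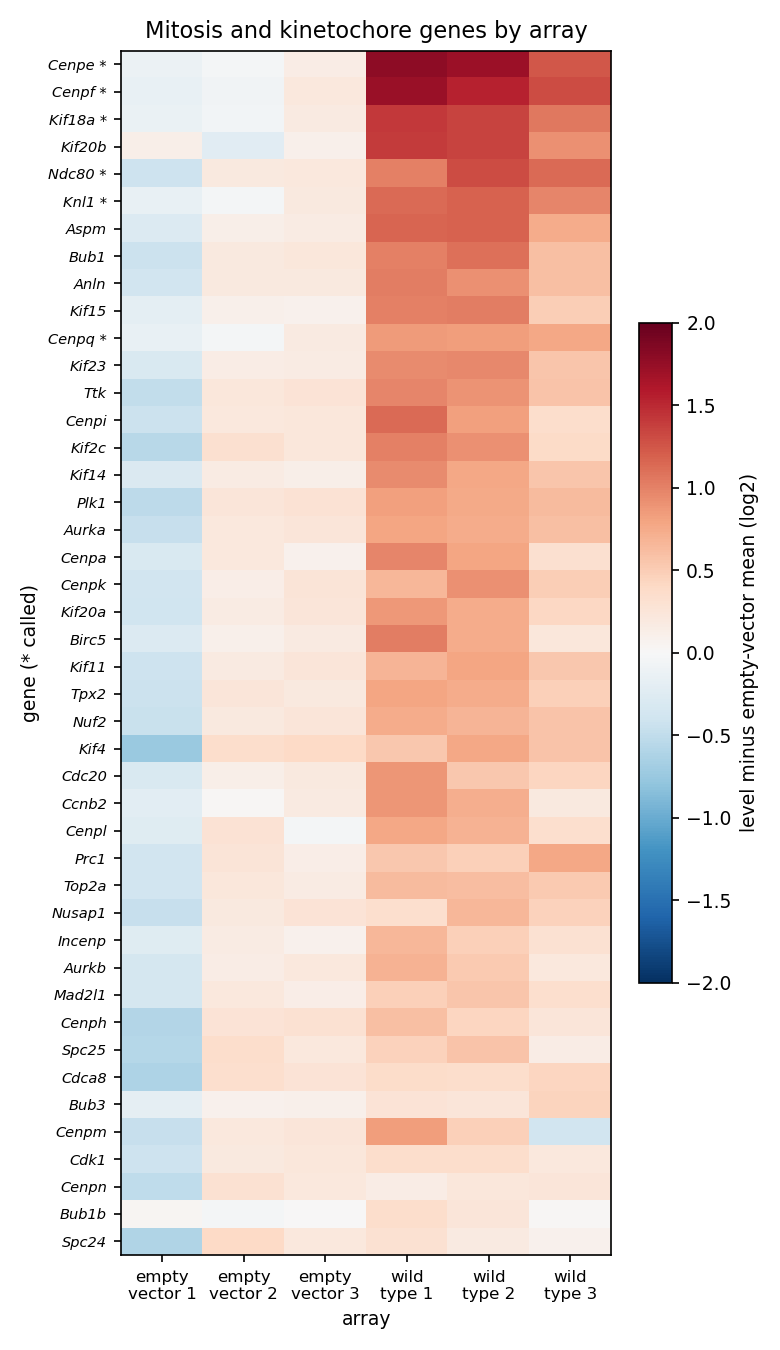
The 44 mitosis and kinetochore genes (rows, ordered by difference, asterisks on the 6 called) in the 3 empty-vector and 3 wild-type arrays (columns); colour is the level minus the gene's empty-vector mean in log2 units, red for higher. The wild-type columns are red for almost every gene, palest in replicate 3, and the column of empty-vector replicate 1 is blue for most genes.

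Mitotic genes share a promoter element, the cell-cycle genes homology region, which is read by the complex that holds them silent in G1 and active in G2. The letters TTTGAA, on either strand and within 50 bases of the transcription start, were found for 24 of the 39 list members with a RefSeq promoter (61.5%), against 701 of 15613 genes (4.49%) and 1624 of all 32851 promoters in the table (4.94%). Of the DNA replication genes 2 of 29 had it. The match did not divide the list. The 24 members with it had a median difference of 0.68 log2 units and the 15 without it 0.69, and the 677 genes outside the list that had it showed a median of 0.03. Promoters of 3 called members are printed because they show where the element lies. Each runs 5′ to 3′ along the gene, from 250 bases before to 50 after the start (RefSeq, build GRCm38.p6), with TTTGAA or its reverse complement in capitals. Cenpf lies at chr1:189688037-189688336 on the minus strand, Ndc80 at chr17:71526808-71527107 on the minus strand and Knl1 at chr2:119046869-119047168 on the plus strand.
Cenpf: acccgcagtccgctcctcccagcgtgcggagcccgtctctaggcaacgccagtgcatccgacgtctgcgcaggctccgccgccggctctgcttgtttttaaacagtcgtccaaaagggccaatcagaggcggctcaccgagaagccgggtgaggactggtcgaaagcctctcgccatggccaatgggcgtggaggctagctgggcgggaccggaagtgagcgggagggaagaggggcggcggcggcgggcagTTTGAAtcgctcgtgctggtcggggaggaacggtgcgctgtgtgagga
Ndc80: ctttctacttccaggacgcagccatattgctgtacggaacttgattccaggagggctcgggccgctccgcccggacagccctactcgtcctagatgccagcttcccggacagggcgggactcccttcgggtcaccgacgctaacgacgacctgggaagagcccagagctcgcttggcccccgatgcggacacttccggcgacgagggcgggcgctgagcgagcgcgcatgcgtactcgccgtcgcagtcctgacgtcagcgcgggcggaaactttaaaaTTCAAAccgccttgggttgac
Knl1: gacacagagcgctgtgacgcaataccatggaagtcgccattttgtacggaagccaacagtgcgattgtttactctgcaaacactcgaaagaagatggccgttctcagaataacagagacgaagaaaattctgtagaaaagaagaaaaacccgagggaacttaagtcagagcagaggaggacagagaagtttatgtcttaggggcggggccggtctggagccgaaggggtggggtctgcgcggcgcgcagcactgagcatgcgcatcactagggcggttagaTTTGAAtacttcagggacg
In Cenpf the match begins at base 3 after the start, in Ndc80 at base 30 and in Knl1 at base 32. No match was found in the windows of Cenpe, Kif18a and Cenpq.

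A core of the Pax5 paired-domain site, GCGTGAC on either strand, was searched in the same windows, where it can overlap TTTGAA in no position. It was found for 6 of 140 risen genes with a promoter (4.29%), 4 of 153 fallen genes (2.61%) and 516 of 15613 genes in all (3.30%), so the shares were close to each other. Of the mitotic calls Cenpe has it, at chr3:135212313-135212612 on the plus strand, beginning at base -182 from the start and in capitals here.
Cenpe: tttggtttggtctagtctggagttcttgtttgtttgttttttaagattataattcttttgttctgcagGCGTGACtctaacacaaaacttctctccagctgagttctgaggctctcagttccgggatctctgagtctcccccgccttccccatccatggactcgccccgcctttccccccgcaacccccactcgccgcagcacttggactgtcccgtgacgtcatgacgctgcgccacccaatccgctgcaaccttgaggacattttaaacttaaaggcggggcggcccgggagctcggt
The others that rose were Slc41a2, Smagp, Fam107b, Nabp1 and Haus6, a subunit of the augmin complex of the spindle. These letters are a match in a short window and not a measured site, and the arrays do not show where Pax5 bound.

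**Figure D4:**
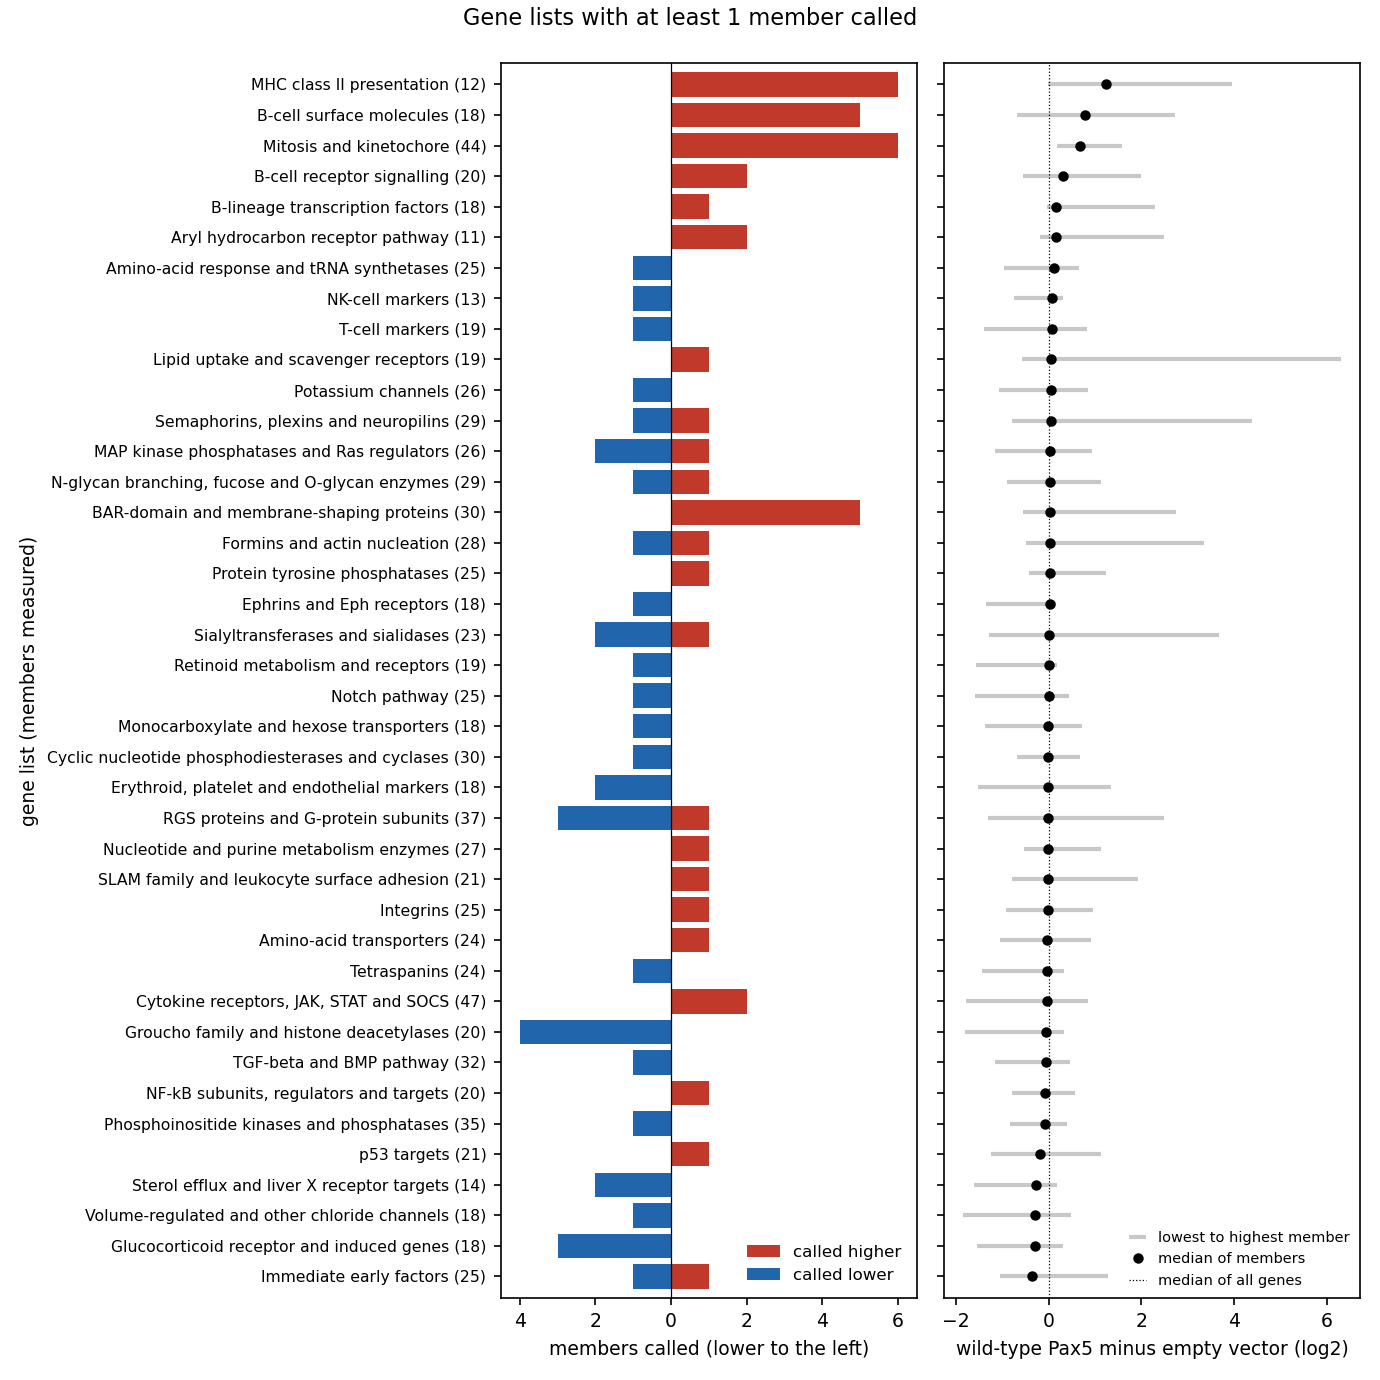
Gene lists with at least 1 called member, 1 list left out, ordered by median difference, with the number of measured members in brackets: at left the members called higher (red, to the right) and lower (blue, to the left), at right the range (grey) and median (black) of the members' log2 differences. MHC class II, B-cell surface and mitosis genes have the medians farthest to the right; the Groucho and histone deacetylase list has 4 blue calls with a median near 0.

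Losses were spread over many functions, and corepressors were the list with the most. Of 20 Groucho-family and histone deacetylase genes 4 fell and 0 rose by limma, against 0.993% and 0.883% of all genes. The list median was -0.06. Tle6, a short Groucho-family protein, read 10.27, 10.18 and 10.18 with empty vector and 8.19, 8.51 and 8.53 with wild type (-1.80 ± 0.28 SE, limma adjusted p = 0.0198). Tle5, a second short member that lacks the repression domain, fell by 0.45 (adjusted p = 0.0254). The class IIa deacetylase genes Hdac7 and Hdac5 fell as well, Hdac7 from 10.47, 10.40 and 10.35 to 9.42, 9.77 and 9.85 (-0.73 ± 0.14 SE, adjusted p = 0.0333) and Hdac5 by 0.64 (adjusted p = 0.0233). The full-length Groucho gene Tle3 did not pass (0.18, adjusted p = 0.267). Full-length Groucho proteins are recruited by many repressors, Pax5 among them through its octapeptide. Whether the 4 losses relate to that recruitment was not tested.

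Abcg1 and Plin3 fell, while most genes of sterol export did not pass. Abcg1, which exports cholesterol to lipoproteins, read 10.44, 10.38 and 10.45 with empty vector and 8.0, 9.11 and 9.33 with wild type (-1.61 ± 0.34 SE, limma adjusted p = 0.0469). Plin3, a coat protein of lipid droplets, fell from 11.24, 11.34 and 11.21 to 9.86, 10.28 and 10.44 (-1.06 ± 0.18 SE, adjusted p = 0.0260). These were 2 of 14 sterol efflux and liver X receptor target genes, with 0 higher by limma and a median of -0.28. Over all genes 0.993% were called lower and 0.883% higher, and the median was 0.01. Plin2 read 11.80, 11.07 and 10.56 and then 8.90, 9.25 and 10.41 without passing (-1.62 ± 0.59 SE, adjusted p = 0.210), and Abca1 was at -0.51 (adjusted p = 0.274). None of 19 sterol synthesis genes passed limma, and their median was 0.02. Its smallest unadjusted p was that of Mvd (-0.25, adjusted p = 0.344). In a family put together after the values were seen, 17 glycerolipid acyltransferase, lipin and seipin genes, Agpat4 (1.21), Bscl2 (0.66) and Dgat2 (0.56) rose and Gpam (-0.48, all log2 differences) fell.

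Single genes of retinoid and aldehyde metabolism fell. Dhrs3, which reduces retinal to retinol and is itself induced by retinoic acid, fell from 9.42, 9.48 and 9.54 to 7.53, 7.68 and 8.50 (-1.58 ± 0.31 SE, limma adjusted p = 0.0386), the only call among 19 retinoid genes. The receptor gene Rara was at -0.60 ± 0.18 SE (adjusted p = 0.132). Of 21 aldehyde dehydrogenases, a family chosen after its values were seen, Aldh4a1 (-1.36), Aldh3b1 (-0.77) and Aldh2 (-0.72, all log2 differences) fell and 0 rose by limma, around a median of 0.0025. Among all genes 0.993% were called lower and 0.883% higher. Aldh4a1 completes the breakdown of proline that Prodh begins, and the 2 genes moved apart. Aldh4a1 went from 9.78, 10.20 and 10.26 to 8.79, 9.05 and 8.35 (adjusted p = 0.0387), while Prodh, also chosen after its value was seen, went from 8.06, 8.06 and 7.94 to 10.11, 9.33 and 9.38 (1.59 ± 0.31 SE, adjusted p = 0.0378).

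Glucocorticoid-induced genes had 3 of 18 lower and 0 higher by limma, against 0.993% and 0.883% of all genes, with a median of -0.31. Tsc22d3, or GILZ, which glucocorticoids and FoxO factors induce in lymphocytes, read 10.39, 10.63 and 10.57 with empty vector and 8.33, 9.35 and 9.23 with wild type (-1.56 ± 0.31 SE, limma adjusted p = 0.0423). Ddit4, an inhibitor of mTOR signalling, fell from 10.61, 10.27 and 10.46 to 9.34, 9.71 and 9.41 (-0.96 ± 0.20 SE, adjusted p = 0.0467). Klf13 fell by 0.46 ± 0.08 (adjusted p = 0.0325). The receptor gene Nr3c1 (-0.56, adjusted p = 0.189) and Txnip (-0.77, adjusted p = 0.192) did not pass, and Klf9 was higher without passing (0.31, adjusted p = 0.159). All 3 fallen genes passed in only 2 or 3 of the 10 left-out fits.

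**Figure D5:**
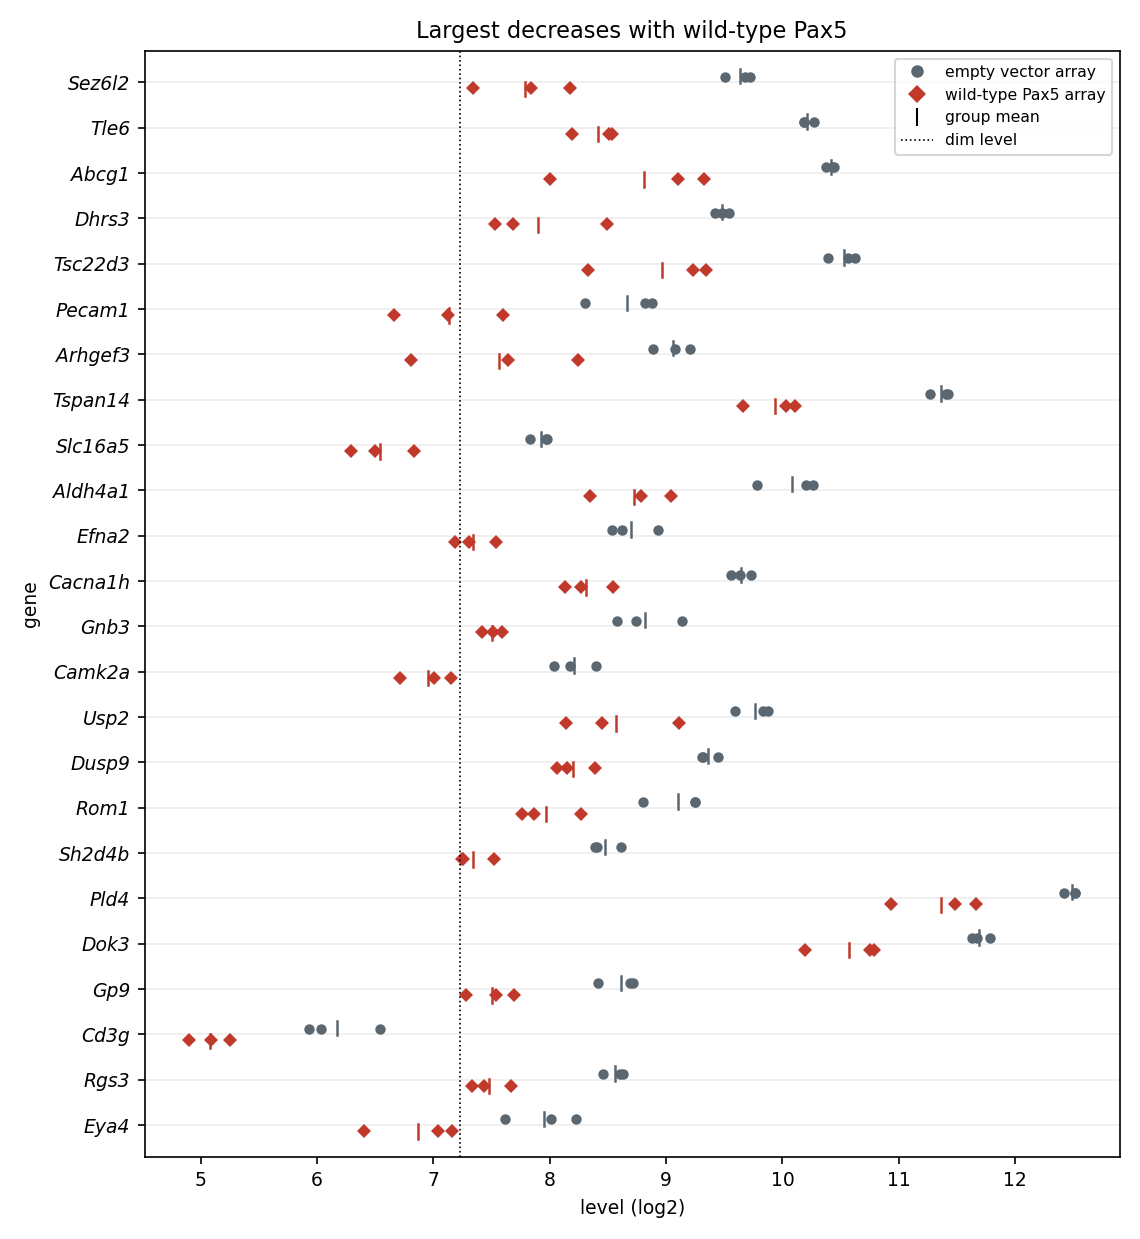
Genes of the naming rule with the largest decreases, 1 per line and 1 gene left out, with the level in each empty-vector array (grey circles) and wild-type array (red diamonds) in log2 units; short bars are group means and the dotted line is the dim level. The groups do not overlap, and only Slc16a5, Camk2a and Eya4 go from above the dim level in every empty-vector array to below it in every wild-type array, while Cd3g is below it throughout.

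Single members of larger signalling families moved in both directions. Among 37 RGS proteins and G-protein subunits 3 fell and 1 rose by limma, against 0.993% and 0.883% of all genes. Gnb3, a beta subunit, read 9.13, 8.58 and 8.74 and then 7.42, 7.51 and 7.59 (-1.31 ± 0.15 SE, limma adjusted p = 0.00767), while Gng3, a gamma subunit, read 6.33, 6.58 and 6.51 and then 9.67, 8.31 and 8.92 (2.49 ± 0.32 SE, adjusted p = 0.0106). The regulators Rgs3 (-1.09, adjusted p = 0.0384) and Rgs14 (-0.67, adjusted p = 0.0306), which speed the switching off of G proteins, fell. Of 26 MAP kinase phosphatase and Ras regulator genes, Dusp9 (-1.15, adjusted p = 0.0384) and Dusp6 (-0.37, adjusted p = 0.0378) fell and the Ras GTPase-activating gene Rasa2 rose from 8.89, 8.93 and 8.74 to 9.94, 9.60 and 9.80 (0.93 ± 0.12 SE, adjusted p = 0.00942). Dok3, an adaptor that dampens B-cell receptor signals, was bright and fell from 11.78, 11.67 and 11.63 to 10.19, 10.75 and 10.79 (-1.12 ± 0.21 SE, adjusted p = 0.0334). The phosphatase gene Inpp4b, which acts on phosphoinositides, fell by 0.83 (adjusted p = 0.0469), 1 of 35 such genes.

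Kcnn4, Cacna1h and Ano6 were the channel genes of the naming rule that fell. Kcnn4, the calcium-activated potassium channel of lymphocytes, read 12.11, 12.15 and 12.24 with empty vector and 10.68, 11.34 and 11.26 with wild type (-1.08 ± 0.18 SE, limma adjusted p = 0.0230) and was the only call among 26 potassium channels. Cacna1h, a T-type calcium channel, fell from 9.56, 9.63 and 9.73 to 8.13, 8.55 and 8.27 (-1.33 ± 0.17 SE, adjusted p = 0.0107). Ano6, the lipid scramblase of the plasma membrane, fell by 0.62 ± 0.11 (adjusted p = 0.0302), 1 of 18 chloride channel and related genes with a median of -0.29. Among carriers the monocarboxylate transporter family gene Slc16a5 fell below the dim level, from 7.83, 7.96 and 7.98 to 6.50, 6.83 and 6.29 (-1.38 ± 0.17 SE, adjusted p = 0.00942). Slc7a11, the cystine importer, rose from 10.21, 10.48 and 10.25 to 11.33, 11.25 and 11.06 (0.90 ± 0.12 SE, adjusted p = 0.0111), the only call among 24 amino-acid transporters.

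Surface and endolysosomal losses began with Tspan14, a tetraspanin partner of the protease ADAM10. It read 11.27, 11.42 and 11.41 with empty vector and 9.66, 10.11 and 10.04 with wild type (-1.43 ± 0.15 SE, limma adjusted p = 0.00646), alone among 24 tetraspanins. Pld4, an endolysosomal nuclease of B cells and dendritic cells, fell from 12.43, 12.52 and 12.52 to 10.94, 11.67 and 11.49 (-1.12 ± 0.21 SE, adjusted p = 0.0333). Sez6l2, a membrane protein described mainly in neurons, had the largest loss of the naming rule, from 9.67, 9.72 and 9.50 to 7.34, 7.84 and 8.17 (-1.85 ± 0.31 SE, adjusted p = 0.0230). Of 30 lysosome and autophagy genes 0 passed limma, the median was -0.18, and 12 had all wild-type arrays below all empty-vector arrays, against 12.5% of all genes. Ctsb, a cathepsin, had the smallest p (-0.47 ± 0.11 SE, adjusted p = 0.0715).

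Some genes of vesicle traffic fell, in a family chosen after the values were seen. Of 59 Rab GTPases Rab37 (-0.95), Rab27a (-0.79), Rab3a (-0.71) and Rab25 (-0.67) fell and Rab39b (0.79, all log2 differences) rose, with a family median of -0.15. Among all genes limma called 0.993% lower and 0.883% higher. Rab27a, Rab37 and Rab3a are known from regulated exocytosis, as is the calcium sensor gene Syt7, which fell by 0.72. Rab27a read 8.79, 9.12 and 9.08 with empty vector and 8.04, 8.41 and 8.15 with wild type (limma adjusted p = 0.0159). Of 33 unfolded protein response and secretion genes 0 passed limma in either direction, and the median was -0.07. Its smallest p was that of the oxidase gene Ero1a (-0.47, adjusted p = 0.0620).

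Inducible proteasome subunit genes, which serve class I antigen processing, fell at 2 members. Of 19 proteasome core subunits, also a family chosen after its values were seen, Psmb10 (-0.61) and Psmb9 (-0.52, both log2 differences) fell and 0 rose by limma. Among all genes 0.993% were called lower and 0.883% higher. The family median was -0.0092. Psmb10 and Psmb9 replace constitutive subunits in the immunoproteasome. Psmb8, the remaining inducible subunit, read 10.33, 10.61 and 10.43 and then 10.08, 10.22 and 9.96 without passing (-0.37 ± 0.19 SE, limma adjusted p = 0.377). The peptide transporter gene Tap1 read 11.08, 11.00 and 10.93 and then 9.15, 9.76 and 10.17 without passing (-1.31 ± 0.35 SE, adjusted p = 0.0974), and Tap2 was at -0.65 ± 0.16 SE (adjusted p = 0.0867). Among 24 interferon-stimulated genes 0 passed limma, the median was -0.20, and Ifi35 came nearest (-0.58, adjusted p = 0.0676).

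Plasma-cell identity genes were neither called higher nor called lower, 0 of 18 by limma, with a median of -0.17. The smallest unadjusted limma p-values on the list were those of Cd93 (-0.66, adjusted p = 0.131), Tnfrsf13b (-0.48, adjusted p = 0.160), Slamf7 (0.40, adjusted p = 0.178) and Sub1 (0.25, adjusted p = 0.219). Cd93 lay below the dim level in every array of both groups. Irf4 read 11.80, 11.77 and 12.02 with empty vector and 12.59, 12.54 and 12.20 with wild type (0.58 ± 0.26 SE, adjusted p = 0.323), and Prdm1, which encodes Blimp-1, 10.46, 10.40 and 10.51 and then 11.12, 10.83 and 10.49 (0.36 ± 0.27 SE, adjusted p = 0.580). A p that misses the threshold does not show that these levels were equal.

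Markers of other cell types were mostly dim in both groups. Below the dim level in every empty-vector array were 17 of 19 T-cell, 18 of 21 myeloid, 12 of 13 NK-cell, 12 of 17 stromal, 12 of 15 pro-B and pre-B, and 12 of 18 erythroid, platelet and endothelial markers. In every wild-type array the numbers were 17, 18, 12, 10, 12 and 12. The T-cell list averaged 6.281 to 6.382 log2 units per array with empty vector and 6.207 to 6.354 with wild type. Over all genes limma called 0.993% lower and 0.883% higher. Of the markers on these lists 4 fell and 0 rose by limma. They were Cd3g, a T-cell receptor chain gene, from 6.54, 6.04 and 5.93 to 4.90, 5.25 and 5.09 (-1.09 ± 0.16 SE, limma adjusted p = 0.0172), the granzyme gene Gzma (-0.76, adjusted p = 0.0198), the platelet glycoprotein gene Gp9 and Pecam1. Pecam1, which encodes the adhesion molecule CD31 and is also found on B-lineage cells, read 8.30, 8.82 and 8.88 and then 6.66, 7.60 and 7.13 (-1.54 ± 0.25 SE, adjusted p = 0.0216). Gp9 fell from 8.42, 8.71 and 8.69 to 7.28, 7.54 and 7.70 (-1.10 ± 0.13 SE, adjusted p = 0.00841). Cd4 was uneven with empty vector, at 7.09, 9.29 and 7.60 against 6.37, 6.71 and 6.74, and did not pass (-1.39 ± 0.44 SE, adjusted p = 0.149).

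Some lists held a single small call. Jag2, a Notch ligand gene, fell by 0.61 ± 0.11 log2 units (limma adjusted p = 0.0299), 1 of 25 Notch pathway genes. Ltbp3, which encodes a binding protein of latent TGF-beta, fell by 0.38 (adjusted p = 0.0454), 1 of 32 TGF-beta and BMP genes. The phosphodiesterase gene Pde7a fell by 0.40 (adjusted p = 0.0497), 1 of 30 cyclic nucleotide genes, and the tyrosine phosphatase gene Ptpn14 rose by 0.50 (adjusted p = 0.0374), 1 of 25.

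Many pathways showed no call at all. Of the 59 lists 18 had none, and 78 of the 374 called genes belong to a list. The lists without a call included Wnt (33 genes, median -0.01), TNF family (29, 0.05), Toll-like receptors (21, -0.10), BCL2 family and caspases (24, -0.11), glycolysis and hypoxia (25, 0.01), oxidative phosphorylation (28, 0.03), Polycomb and trithorax (30, -0.10) and ribosomal protein genes (21, 0.05, all medians of log2 differences). Across all genes 3175 (15.9%) had an unadjusted p under 0.05, so these lists are without calls at limma's adjusted threshold and not without differences.

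The 6 genes that passed in every left-out fit were also read in the 4 G183S arrays. The 2 comparisons with empty vector share its 3 arrays, so the values are given side by side. Pax5 itself read 10.22, 10.36, 9.38 and 9.96 with G183S (-0.29 ± 0.23 SE against wild type, limma adjusted p = 0.674), lowest in replicate 3. Cd36 read 11.82, 10.22, 8.86 and 10.80 with G183S, St3gal6 10.11, 9.62, 9.31 and 9.65, and Siglecg 7.81, 7.47, 7.50 and 7.39, and the first 2 of these genes were also lowest in G183S replicate 3. For St3gal6 and Siglecg the differences of G183S from wild type, -1.16 ± 0.20 SE (limma adjusted p = 0.279) and -0.95 ± 0.15 SE (adjusted p = 0.263), did not pass. H2-Ob read 8.80, 8.94, 8.28 and 9.08 and Fcgr2b 12.27, 12.21, 12.07 and 12.26, overlapping the wild-type arrays. Between G183S and wild type limma called 0 genes, while 1891 had an unadjusted p under 0.05.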

How the data were processed

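Total RNA extracted with Trizol, 100 ng per sample, was labelled with the Ambion WT Expression Kit and hybridised to arrays, per the labels' protocols. The authors deposited log2 values; per the submitters' processing notes RMA and Partek were used, and which arrays were normalized together is not given in the sources used here. With 3 arrays a group, precision is limited by their number. Of 34760 probe sets, 21640 had 1 gene symbol, 1321 several and 11799 no entry; 21553 matched RefSeq (GRCm38.p6), and 19937 genes remained.

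All 10 arrays were fitted together with lmFit and eBayes (limma 3.58.1, R 4.3.3), with the contrast wild type minus empty vector and Benjamini-Hochberg adjustment over all genes. Scripts ran in Python 3.11.15 with pandas 2.3.3 and were tested on simulated data. Named genes were the 25 largest increases and decreases, the 15 largest crossings of the dim level each way, every called list member, the 2 smallest p-values of lists without a call, and set identity genes. Predicted and clone names, sensory receptors, small RNAs and antigen-receptor segments were left out (19 called genes). Genes without a call that are given from lists with one, families and motifs were chosen after values were seen. Members and lists were chosen with earlier results of these data known. Of 1516 list genes 94 were not analysed here. The text gives a subset of the named genes; 1 gene list is not reported here.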

Additional observations from a re-analysis of the deposited data

How the results depend on the processing

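No called gene changed sign under any alternative. For the fits that left out 1 array this was fixed in advance, because the groups of every called gene lay apart. The counts moved with the setting. The fit of the 6 arrays alone gave 231 higher and 356 lower, array weights 1115 and 1461 (124 and 71 by at least 1 log2 unit), centring on array medians 102 and 246, and no variance moderation 3 and 1 (3 and 0 by at least 1 log2 unit). Quantile normalization gave 191 and 169. With 1 array left out the counts ranged from 6 to 369 higher and 0 to 664 lower, and by at least 1 log2 unit from 6 to 104 and 0 to 68. The causes were not tested. With the replicate block 100 were higher and 128 lower (42 and 27 by at least 1 log2 unit), and 179 of the 374 calls were kept. Same-numbered arrays deviated from their group means with correlations of -0.08, -0.01 and -0.14. With 3 arrays a group, such values cannot show whether same-numbered cultures were handled together. The Ighm log2 fold change, 0.05, was at -0.0053 after quantile normalization, -0.013 with probe sets averaged and -0.066 with the most variable probe set.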

Other observations

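With the measured genes in order along the genome, called genes followed each other in 16 pairs, of which 14 moved in the same direction. Genes not measured were skipped, so neighbours here are neighbours among measured genes. The share over all such pairs was not counted. Among the 14 were the class II pairs H2-Ob with H2-Ab1, H2-Eb1 with H2-Eb2 and H2-Eb2 with H2-Ea. Rapgef3, the haem transporter gene Slc48a1 and Hdac7 are neighbours and all fell, as are Sh2d4b and Tspan14. Gng3 and the seipin gene Bscl2 are neighbours and both rose, as did Pinlyp with Xrcc1. The 2 pairs that moved apart were Ero1b with Gpr137b-ps and Slc37a1 with Pde9a. These pairs were counted after the calls were seen.

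Genes that rose were longer, with a median length of 39.81 kb, against 22.78 kb for genes that fell and 21.54 kb for all genes above the dim level. Among probe sets without a gene entry, in a fit over all probe sets, limma called 14 higher and 14 lower of 11799 (0.237%), against 69 and 87 of the 21640 with 1 symbol (0.721%).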
